A study of Homo sapiens with 6 samples.

Results

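Shelterin and CST are the protein complexes that cover and finish human telomeres, and their genes are described here in HCT116, an established cell line from a human colorectal carcinoma. The 8 genes were taken from the deposited count table by gene name, with no use of measured values: TERF1, TERF2, TERF2IP, TINF2, POT1 and ACD for shelterin, and CTC1 and TEN1 for CST. They are 8 of 60675 genes in the table, and 7 of them passed the filter on low counts. TEN1 did not pass and is given by its counts. RNA was sequenced from 6 libraries in 3 groups of 2. The siPIR group is HCT116 in which PIR, the gene of Pirin, was knocked down for 48 h with small interfering RNA. The SP2509 group is HCT116 without the knockdown, kept for 48 h in 3 uM SP2509, a compound known to inhibit LSD1, a histone demethylase. The untreated group is HCT116 labelled wild type and untreated. The treatment label of the siPIR libraries also names SP2509, so whether those cells received the compound cannot be settled from the labels. The treatment protocol names DMSO, and the labels do not say whether untreated cells received this solvent. None of the 6 libraries used here is labelled as a non-targeting siRNA control. Nothing in the labels says that replicates were separate cultures, so p-values measure only the spread between these libraries, which may be technical. The series title calls SP2509 a repressor of hTERT, the gene of telomerase, and the comparisons here ask how the genes of the telomere cap behaved in the same libraries.

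Human telomeres end in TTAGGG repeats with a protruding strand rich in G. In shelterin, TRF1 (gene TERF1) and TRF2 (TERF2) bind the duplex repeats, TIN2 (TINF2) ties them together, RAP1 (TERF2IP) rides on TRF2, and TPP1 (ACD) joins TIN2 to POT1, which binds the protruding strand. Shelterin hides chromosome ends from the DNA damage response, and TPP1 is also the surface that recruits telomerase. CST, made of CTC1, STN1 and TEN1, binds the protruding strand after telomerase has worked, limits further extension and brings DNA polymerase alpha-primase to fill in the complementary strand.

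The libraries held 22622441 to 28816590 counts. The knockdown target PIR had 37 and 39 counts in siPIR libraries, 377 and 305 in SP2509 libraries and 519 and 462 in untreated libraries, so the labels and the target gene point the same way. Its log2 change in siPIR against untreated cells was -2.87, and -2.0 with the GC-length offset described below. Of 7 colon epithelial markers, all were detected and VIL1 alone did not pass the filter. The summed CPM (counts per 1e6 counts of a library, with TMM scaling) of the 7 was 1342 and 1354 in siPIR, 4714 and 4786 in SP2509, and 3692 and 3625 in untreated libraries. The keratins KRT8, KRT18 and KRT19 fell in siPIR against untreated cells, as did CLDN7, while EPCAM and CDH1 rose. The median log2 change of the 6 tested markers was -1.92, or 0.40 with the GC-length offset described next. With that offset KRT8 was at -0.74, KRT18 at -0.56, KRT19 at -0.02, CLDN7 at 1.77, EPCAM at 1.73 and CDH1 at 0.82. The part of this difference in the results was not tested. Markers of fibroblasts summed to between 1.78 and 25.7 CPM, most of it from COL1A1, while COL1A2 was at 0 in every library. COL1A1 had 1.15 and 1.56 CPM in siPIR, 21.8 and 20.6 CPM in SP2509, and 22.0 and 24.8 CPM in untreated libraries. Its log2 change in siPIR against untreated cells was -4.1, and -0.77 with the offset. Markers of leukocytes reached at most 1.34 CPM in sum, with PTPRC and CD3E at 0 in every library, and those of endothelial cells at most 1.83 CPM. The siPIR libraries stood apart from the other 4 in base composition: the mean GC content of transcripts weighted by counts was 42.3% and 42.8% in siPIR libraries, against 48.3% to 48.7% in SP2509 and untreated libraries. The knockdown and this shift share the same 2 libraries and cannot be told apart. For that reason log2 changes of siPIR cells are also given with a GC-length offset, a term that removes from each library its own trend with the GC content and length of transcripts, whatever the source of the trend. Counts, CPM levels, sums of markers, ratios of counts and levels per length carry the shift as measured. The replicates differed by unequal amounts, with an SD over genes of the log2 difference of 0.486 between siPIR libraries, 0.341 between SP2509 libraries and 0.257 between untreated libraries, and all groups share 1 estimate of the spread in the test.

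With SP2509 the telomere cap genes split. TERF2IP rose 2.86-fold and POT1 1.54-fold against untreated cells, whereas TERF1 fell 2.18-fold, CTC1 2.06-fold and TERF2 1.53-fold, and TINF2 and ACD did not pass the test (edgeR quasi-likelihood test, adjusted p at or under 0.05). Thus 5 of the 7 tested genes changed, 2 higher and 3 lower, and their median log2 change was 0.13. Over all 16503 genes tested, 68.6% passed the same threshold, 33.5% higher and 35.1% lower, with a median of -0.04, so the share of these genes that changed was near that of all genes. In bulk RNA, fewer cells with a transcript and less of it per cell cannot be told apart. Without the 2 siPIR libraries, a fit chosen after seeing the data, 6 of 7 changed, and 76.3% of all genes. In siPIR against untreated cells all 7 passed, 3 higher (TERF1, TERF2IP and POT1) and 4 lower (TERF2, TINF2, ACD and CTC1), with a median of -0.54. There 86.1% of all genes passed, 39.3% higher and 46.9% lower, with a median of -0.28. With the offset, 6 of 7 passed, 4 higher and 2 lower, where 65.1% of all genes passed, 32.7% higher and 32.4% lower. With the offset computed on coding transcripts 5 passed, 2 higher and 3 lower, where 64.7% of all genes passed, 32.2% higher and 32.5% lower.

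**Figure D1:**
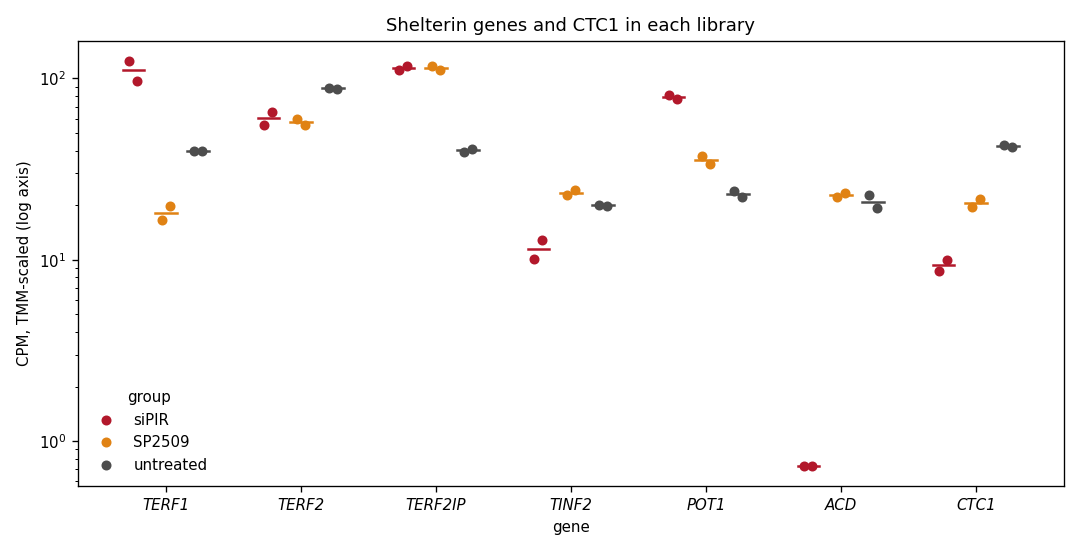
Level of each of the 7 tested genes in each library, in CPM scaled by TMM on a log axis; each point is a library and each bar is the mean of the 2 libraries of a group. TERF2IP sits between 112 and 117 CPM in siPIR and SP2509 libraries, above the untreated libraries at 39.4 and 40.9 CPM, and ACD drops to 0.73 CPM in siPIR libraries.

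TERF1 (ENSG00000147601, GRCh38 chromosome 8, 73008864 to 73048122, plus strand) encodes TRF1, which binds duplex repeats and helps replication forks through them. Its level was 125 and 96.3 CPM in siPIR libraries, 16.5 and 19.9 CPM in SP2509 libraries, and 39.9 and 39.8 CPM in untreated libraries. The 3 groups did not overlap, with SP2509 lowest and siPIR highest. In SP2509 cells the mean was 18.2 ± 2.41 CPM, against 39.9 ± 0.113 CPM in untreated cells (SD, n = 2 libraries each), a log2 change of -1.13 (SE 0.137, edgeR adjusted p = 1.13e-05). It was -1.11 with the offset. In siPIR cells the mean was 111 ± 20.4 CPM and the log2 change against untreated cells 1.47 (SE 0.13, edgeR adjusted p = 1.55e-07). This rise was 1.07 with the offset computed on the longest transcript of each gene, which for TERF1 keeps an intron and has a GC content of 45.2%. With the offset computed on the longest coding transcript, chosen after seeing the data, where TERF1 has 38.1% GC, the value turned to -0.28 (edgeR adjusted p = 0.0101). The direction of TERF1 in siPIR cells therefore depended on which transcript stood for the gene, while its fall in SP2509 cells was -1.10 with that second offset. No annotated exon of TERF1 overlaps another gene, and its listed pseudogenes held at most 1 count in any library.

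TERF2 (ENSG00000132604, chromosome 16, 69355561 to 69408571, minus strand) encodes TRF2, the subunit known to fold the end into a protected loop and to keep ATM signalling and end joining away from it. Its level was 55.3 and 65.6 CPM in siPIR libraries, 59.8 and 55.7 CPM in SP2509 libraries, and 89.1 and 87.0 CPM in untreated libraries. Both treated groups lay below the untreated libraries and overlapped each other. The log2 change in SP2509 against untreated cells was -0.61 (SE 0.105, edgeR adjusted p = 0.000213), and -0.51 with the offset. The siPIR value against untreated cells was -0.54 (SE 0.106, edgeR adjusted p = 0.000328), and this direction turned to 0.19 with the offset (edgeR adjusted p = 0.042) and 0.08 with the offset on coding transcripts (edgeR adjusted p = 0.378). Of the exon bases of TERF2, 98 are shared on the same strand with AC026464.3, which was listed at 0 counts in every library.

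TERF2IP (ENSG00000166848, chromosome 16, 75647786 to 75761872, plus strand) encodes RAP1, which reaches telomeres through TRF2 and has further known roles away from telomeres, including in NF-kB signalling. The gene had 112 and 117 CPM in siPIR libraries, 117 and 112 CPM in SP2509 libraries, and 39.4 and 40.9 CPM in untreated libraries. Both treated groups lay at the same level and well above the untreated libraries. In SP2509 cells the mean was 115 ± 3.74 CPM, against 40.1 ± 1.02 CPM in untreated cells, a log2 change of 1.51 (SE 0.096, edgeR adjusted p = 4.63e-08). In siPIR cells the mean was 115 ± 3.46 CPM and the log2 change against untreated cells 1.52 (SE 0.0964, edgeR adjusted p = 5.14e-09). These values were 1.59 and 2.09 with the offset. TERF2IP had the largest rise of the 7 genes in SP2509 cells, while TERF2, whose protein carries RAP1 to the telomere, fell in the same libraries. The number of TERF2IP counts per TERF2 count, which does not depend on scaling between libraries, was 2.03 and 1.79 in siPIR, 1.96 and 2.01 in SP2509, and 0.442 and 0.47 in untreated libraries. Per TERF1 count it was 0.898 and 1.22 in siPIR, 7.09 and 5.62 in SP2509, and 0.987 and 1.03 in untreated libraries, so in raw counts the siPIR and untreated libraries overlapped. In siPIR against untreated cells the log2 changes behind this ratio were 1.52 for TERF2IP and 1.47 for TERF1, and the offset on coding transcripts left TERF2IP higher and turned TERF1 to -0.28.

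TERF2IP lies head to head with KARS, the gene of lysyl-tRNA synthetase, on the opposite strand, with annotated starts 857 bases apart and 176 shared exon bases. KARS averaged 119 ± 11.8 CPM in siPIR, 221 ± 1.34 CPM in SP2509 and 135 ± 3.5 CPM in untreated cells. It rose in SP2509 against untreated cells (log2 change 0.72, edgeR adjusted p = 3.75e-05) and did not pass in siPIR against untreated cells (-0.18, edgeR adjusted p = 0.107), where it passed as lower with the offset (-0.30, edgeR adjusted p = 0.00145). How strand was handled in counting is not given, so reads in the shared bases cannot be assigned to 1 of the pair with certainty.

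TINF2 (ENSG00000092330, chromosome 14, 24239643 to 24242674, minus strand) encodes TIN2, the hub that links TRF1, TRF2 and TPP1. It had 10.1 and 12.8 CPM in siPIR libraries, 22.7 and 24.2 CPM in SP2509 libraries, and 20.0 and 19.9 CPM in untreated libraries. The SP2509 and untreated libraries did not overlap, but the log2 change of 0.23 did not pass (SE 0.117, edgeR adjusted p = 0.0902). It passed in the fit without siPIR libraries (0.24, edgeR adjusted p = 0.016), with the offset (0.36, edgeR adjusted p = 0.00182) and in a fit blocked on an unexplained number that the sample descriptions carry (0.23, edgeR adjusted p = 0.0414), and turned to -0.16 with scaling by total counts alone. TINF2 was lower in siPIR against untreated cells by the counts as fitted, with a log2 change of -0.80 (SE 0.128, edgeR adjusted p = 5.84e-05). The offset turned this to 0.79 (edgeR adjusted p = 1.51e-06), and the offset on coding transcripts to 0.68.

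POT1 (ENSG00000128513, chromosome 7, 124822386 to 124929983, minus strand) encodes the protein that covers the protruding strand and keeps ATR signalling away. Its level was 81.2 and 76.6 CPM in siPIR libraries, 37.2 and 33.9 CPM in SP2509 libraries, and 24.0 and 22.2 CPM in untreated libraries. No groups overlapped. In SP2509 against untreated cells the log2 change was 0.62 (SE 0.103, edgeR adjusted p = 0.000158), 0.62 with the offset and 0.23 with total counts alone, where it no longer passed (edgeR adjusted p = 0.0675). For siPIR against untreated cells it was 1.77 (SE 0.103, edgeR adjusted p = 2.15e-09) and 0.01 with the offset (edgeR adjusted p = 0.929), with -0.06 on coding transcripts. The antisense gene POT1-AS1 shares 111 exon bases with POT1 and held 13 to 21 counts per library.

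ACD (ENSG00000102977, chromosome 16, 67657512 to 67660815, minus strand) encodes TPP1, the partner of POT1. It had 14 and 14 counts in siPIR libraries, 568 and 603.5 in SP2509 libraries, and 819 and 608 in untreated libraries, which is 0.731 and 0.729 CPM in siPIR, 22.3 and 23.4 CPM in SP2509, and 22.7 and 19.2 CPM in untreated libraries. ACD was low in siPIR libraries alone, and SP2509 and untreated libraries overlapped. The log2 change in siPIR against untreated cells was -4.83 (SE 0.195, edgeR adjusted p = 9.4e-11), a 28.5-fold lower level. With the offset it was -1.24 (edgeR adjusted p = 0.000161), and with the offset on coding transcripts -1.11 (edgeR adjusted p = 0.00059), so the call held at a much smaller size. In SP2509 against untreated cells the value of 0.13 did not pass (SE 0.112, edgeR adjusted p = 0.333). It was 0.39 with the offset (edgeR adjusted p = 0.00162), and it turned to -0.11 after upper-quartile scaling and -0.26 by total counts (edgeR adjusted p = 0.0496). POT1 counts per ACD count came to 111 and 105 in siPIR, 1.67 and 1.45 in SP2509, and 1.06 and 1.16 in untreated libraries. This ratio carries the GC shift. In siPIR against untreated cells the log2 changes behind it were 1.77 for POT1 and -4.83 for ACD, and with the offset 0.01 and -1.24. PARD6A, whose start lies 131 bases from that of ACD on the opposite strand, had 1 count in each siPIR library and averaged 4.86 ± 0.979 CPM in SP2509 and 4.17 ± 0.524 CPM in untreated cells. In siPIR against untreated cells PARD6A was at -6.2, and at -2.5 with the offset. CARMIL2, listed as RLTPR, shares 58 exon bases with ACD on the opposite strand. It had 1 and 6 counts in siPIR, 229.5 and 265 in SP2509, and 394 and 318 in untreated libraries. In siPIR against untreated cells CARMIL2 was at -5.81, and at -1.5 with the offset.

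**Figure D2:**
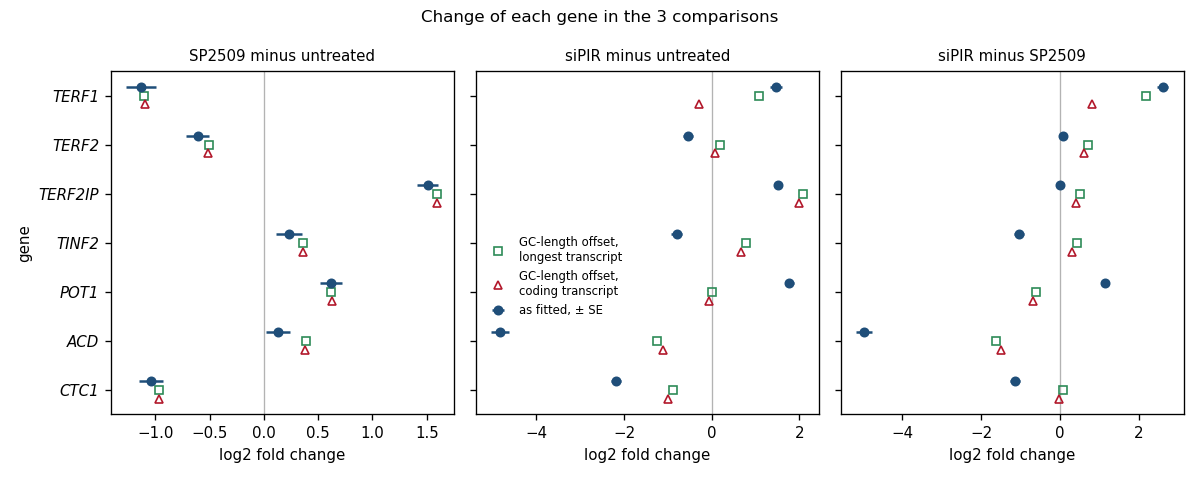
Log2 fold change of each of the 7 tested genes in the 3 comparisons; filled circles with bars are the fitted value ± SE, and open squares and triangles are the values with the GC-length offset on the longest and on the longest coding transcript. The 3 symbols lie close together in SP2509 minus untreated, and in siPIR minus untreated they lie on both sides of 0 for TERF1, TERF2, TINF2 and POT1.

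The base composition of these genes differs widely, and the coding sequences of POT1, ACD and TERF2IP show it. The central 150 bases of each coding sequence are given 5′ to 3′ (GRCh38, GENCODE release 29, longest coding transcript) with G and C in capitals, since the share of capitals is what sets the genes apart. In POT1 they are coding bases 877 to 1026, counted from the A of the start codon, with 39.3% GC. In ACD they are bases 742 to 891 with 62.0% GC, and in TERF2IP bases 524 to 673 with 68.0% GC. Over the whole coding sequence GC content was 39.0% in POT1, 64.4% in ACD and 57.8% in TERF2IP. Over the longest coding transcript it was 37.6%, 62.6% and 50.1%. The stretch of TERF2IP is thus richer in GC than its coding sequence as a whole, which lies below that of ACD.
POT1: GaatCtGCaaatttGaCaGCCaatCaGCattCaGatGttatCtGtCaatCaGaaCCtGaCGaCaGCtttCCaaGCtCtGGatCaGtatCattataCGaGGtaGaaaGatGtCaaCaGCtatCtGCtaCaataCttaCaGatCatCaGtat
ACD: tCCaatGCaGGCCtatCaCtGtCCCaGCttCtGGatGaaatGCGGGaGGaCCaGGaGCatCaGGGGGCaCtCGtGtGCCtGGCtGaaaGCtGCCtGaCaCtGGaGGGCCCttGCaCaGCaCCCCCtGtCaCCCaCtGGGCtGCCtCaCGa
TERF2IP: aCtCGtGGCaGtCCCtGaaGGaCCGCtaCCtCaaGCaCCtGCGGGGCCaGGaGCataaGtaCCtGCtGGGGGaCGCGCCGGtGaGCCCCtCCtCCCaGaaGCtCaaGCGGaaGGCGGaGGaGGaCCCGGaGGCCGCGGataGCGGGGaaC

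In siPIR against untreated cells the change of all genes followed GC content closely. Genes with 35 to 40% GC in their longest coding transcript had a median log2 change of 1.89 (2144 genes), those with 45 to 50% a median of 0.12 (2870 genes), those with 50 to 55% a median of -1.08 (2567 genes) and those with 60 to 65% a median of -4.06 (1869 genes). POT1, at 37.6% GC, was at 1.77 and TERF1, at 38.1% GC, was at 1.47, both in the bin with a median of 1.89. ACD, at 62.6% GC, was at -4.83, below its bin median of -4.06. The bin with a median of -1.08 held TERF2IP, TERF2, TINF2 and CTC1. Of these CTC1 lay below the median at -2.18, and TINF2 at -0.80, TERF2 at -0.54 and TERF2IP at 1.52 lay above it. In this bin 9.97% of genes passed the test as higher. TERF2IP, at 50.1% GC, was at the lower edge of the bin, and in the bin of 45 to 50% GC 38.8% passed as higher. The same bins in SP2509 against untreated cells had medians of 0.05, 0.04, -0.05 and -0.20, so the values of the 7 genes there had little of this trend beside them.

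**Figure D3:**
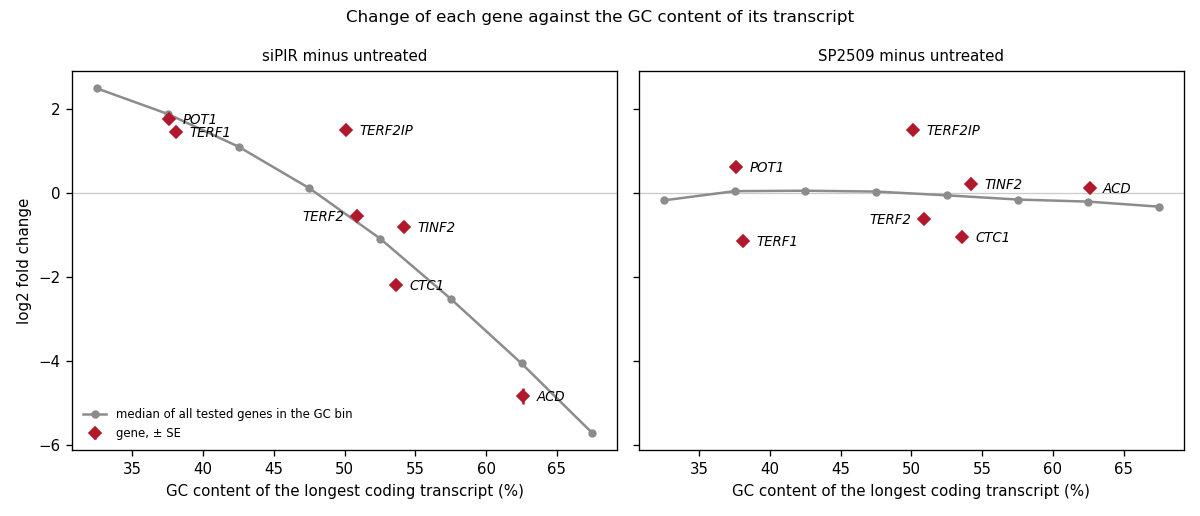
Log2 fold change against the GC content of the longest coding transcript for the 7 tested genes (diamonds ± SE) and the median of all tested genes per GC bin (grey line; the bins under 35% and over 65% are the ends of the line). The median in siPIR minus untreated runs from 2.50 in the lowest bin to -5.72 in the highest, and TERF2IP lies well above it at 1.52.

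Promoter windows were at hand for 4 of the 8 genes (RefSeq, GRCh38.p14, 250 bases before to 50 after the start), and those of the genes that rose with SP2509, TERF2IP and POT1, are shown. The TERF2IP window is chr16:75647523-75647822 on the plus strand with 63.0% GC, and its capitals mark the ETS core CCGGAAG, found on the minus strand at base 192. The POT1 window is chr7:124929776-124930075 on the minus strand with 60.3% GC, and its capitals mark a full cyclic AMP response element, TGACGTCA, at base 228.
TERF2IP promoter: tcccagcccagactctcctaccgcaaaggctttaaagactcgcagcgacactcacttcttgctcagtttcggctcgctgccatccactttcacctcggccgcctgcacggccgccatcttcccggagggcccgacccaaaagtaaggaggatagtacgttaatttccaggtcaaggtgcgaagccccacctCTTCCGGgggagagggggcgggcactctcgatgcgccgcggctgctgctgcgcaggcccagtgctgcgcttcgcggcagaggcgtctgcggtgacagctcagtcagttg
POT1 promoter: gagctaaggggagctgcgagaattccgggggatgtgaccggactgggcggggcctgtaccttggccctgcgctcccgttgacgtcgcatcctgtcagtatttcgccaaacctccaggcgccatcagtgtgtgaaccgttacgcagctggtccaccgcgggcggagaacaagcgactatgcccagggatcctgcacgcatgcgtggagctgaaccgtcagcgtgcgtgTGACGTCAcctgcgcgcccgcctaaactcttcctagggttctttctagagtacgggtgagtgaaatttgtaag
Both strands were searched. TGACGTCA occurs in 1.848% of 35116 windows of this length, CCGGAAG in 10.3%, the GC box GGGCGG in 15786 windows, CCAAT in 34.6% and the telomere repeat TTAGGG in 9.053%. The GC box occurs once in the TERF2IP window, at base 207, and 2 times in that of POT1, at bases 45 and 158. Neither window holds CCAAT or TTAGGG. The 2 windows share only the GC box, a common motif in these windows. Windows of TINF2 and ACD, which did not pass in SP2509 against untreated cells, each hold 2 GC boxes. The ETS core CCGGAAG is also in those of TINF2 and not in that of ACD. These matches describe letters and say nothing of whether a factor binds there.

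CTC1 (ENSG00000178971, chromosome 17, 8224821 to 8248095, minus strand) encodes the largest subunit of CST. Its level was 8.62 and 10.0 CPM in siPIR libraries, 19.5 and 21.6 CPM in SP2509 libraries, and 42.8 and 41.8 CPM in untreated libraries. The groups did not overlap, and both treated groups lay below the untreated libraries. The log2 change in SP2509 against untreated cells was -1.04 (SE 0.108, edgeR adjusted p = 2.74e-06), and -0.97 with the offset. The siPIR value was -2.18 (SE 0.12, edgeR adjusted p = 1.27e-09), and -0.89 with the offset (edgeR adjusted p = 1.24e-07). CTC1 was the one gene of the 7 that was lower in both treated groups with and without either offset. CTC1 and POT1, which both bind the protruding strand, moved apart: there were 0.106 and 0.131 CTC1 counts per POT1 count in siPIR, 0.524 and 0.639 in SP2509, and 1.78 and 1.88 in untreated libraries. With the offset, POT1 was at 0.01 in siPIR against untreated cells, beside -0.89 for CTC1. PFAS, an enzyme of purine synthesis that starts 477 bases from the start of CTC1 on the opposite strand, also fell in SP2509 cells, with 14.2 ± 0.98 CPM against 34.1 ± 0.00805 CPM in untreated cells (log2 change -1.27, edgeR adjusted p = 4.69e-07). Against untreated cells PFAS was at -2.66 in siPIR cells, and at -0.03 with the offset, where CTC1 kept its call.

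TEN1 (ENSG00000257949, chromosome 17, 75979220 to 76000586, plus strand) encodes the smallest subunit of CST. It had 0 and 1 counts in siPIR libraries, 2 and 4 in SP2509 libraries, and 0 and 1 in untreated libraries. A level under 3 counts, which is 0.083 to 0.157 CPM in these libraries, could not be seen, and no fold change is given. Of 1303 exon bases of TEN1, 983 (75.4%) are shared on the same strand with the read-through gene TEN1-CDK3, and 309 are shared with no gene, so most reads from TEN1 could not be told from those of TEN1-CDK3. The read-through gene itself had 1 and 1 counts in siPIR libraries, 30 and 27 in SP2509 libraries, and 41 and 34 in untreated libraries. The log2 change of TEN1-CDK3 was 0.01 in SP2509 against untreated cells (edgeR adjusted p = 0.98). In siPIR against untreated cells it was -4.29 (edgeR adjusted p = 7.59e-06). It no longer passed there with the offset (-1.21, edgeR adjusted p = 0.228) or with the offset on coding transcripts (-1.31, edgeR adjusted p = 0.184). The level of TEN1 RNA in HCT116 was therefore not measurable from these counts.

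The remaining subunit of CST is STN1, listed in the table under its older symbol OBFC1. STN1 averaged 41.0 ± 1.56 CPM in siPIR, 37.6 ± 0.746 CPM in SP2509 and 54.6 ± 3.33 CPM in untreated cells. It fell in SP2509 against untreated cells (log2 change -0.54, edgeR adjusted p = 0.000305) and in siPIR against untreated cells (-0.41, edgeR adjusted p = 0.00149), though the siPIR value turned to 0.18 with the offset (edgeR adjusted p = 0.058) and 0.11 on coding transcripts (edgeR adjusted p = 0.233). Both measurable CST genes were thus lower in SP2509 cells, CTC1 by the larger amount.

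Between the treated groups, siPIR against SP2509, 5 of the 7 genes passed, 2 higher (TERF1 and POT1) and 3 lower (TINF2, ACD and CTC1), with a median log2 change of 0.00. Of all genes 84.3% passed in this comparison, 38.8% higher and 45.5% lower, with a median of -0.23. TERF1 differed by 2.60 (SE 0.14, edgeR adjusted p = 1.03e-09), a 6.07-fold higher level in siPIR cells, and by 2.18 and 0.82 with the offset on the longest and on the coding transcripts. ACD differed by -4.96 (SE 0.195, edgeR adjusted p = 6.77e-11), and by -1.63 and -1.50. These were the 2 genes that kept their direction and their call with both offsets. POT1 was at 1.15 (SE 0.101, edgeR adjusted p = 1.56e-07) and turned to -0.61 and -0.69, TINF2 at -1.03 (SE 0.128, edgeR adjusted p = 5.36e-06) turned to 0.43 and 0.31, and CTC1 at -1.14 (SE 0.125, edgeR adjusted p = 1.45e-06) was at 0.07 and -0.02. TERF2IP at 0.00 (edgeR adjusted p = 0.994) and TERF2 at 0.07 (edgeR adjusted p = 0.568) did not pass, though both passed as higher in siPIR cells with the offset, at 0.50 and 0.70. The comparisons share libraries, so their values are set side by side only.

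Per length, TERF2IP was the most abundant of the 8 genes in both treated groups and TERF2 in untreated cells. Levels here are CPM per kilobase of the longest transcript. TERF2IP stood at 54.2 ± 1.63 in siPIR, 54.1 ± 1.77 in SP2509 and 19.0 ± 0.481 in untreated cells (SD, n = 2 libraries each). TERF2 stood at 20.3 ± 2.44 in siPIR, 19.4 ± 0.975 in SP2509 and 29.5 ± 0.496 in untreated cells. The share of TERF2IP in the sum of the 8 genes was 41.2% in siPIR, 49.1% in SP2509 and 21.4% in untreated cells. In siPIR cells the order continued with TERF1 (30.8), TERF2 (20.3), POT1 (19.3), TINF2 (5.29), CTC1 (1.32), ACD (0.289) and TEN1 (0.0262), in which TERF2 and POT1 overlapped. In SP2509 cells TERF2 was followed by TINF2 (10.8), ACD (9.05), POT1 (8.71), TERF1 (5.07), CTC1 (2.91) and TEN1 (0.118), in which ACD and POT1 overlapped. In untreated cells TERF2 and TERF2IP were followed by TERF1 (11.1), TINF2 (9.19), ACD (8.29), CTC1 (5.98), POT1 (5.67) and TEN1 (0.0159), and no neighbours overlapped. POT1 was thus the lowest of the measurable genes in untreated cells, whereas CTC1 was the lowest in SP2509 cells and ACD in siPIR cells. The places of TERF1 and of some other genes depended on the length used. Over the union of its exons, 8831 bases against 3598 in its longest transcript, TERF1 ranked 7 of 8 in SP2509 and 6 of 8 in untreated cells. There TERF1 (2.07) and not CTC1 (2.4) was the lowest measurable gene in SP2509 cells, and POT1 ranked 2 in siPIR cells, overlapping TERF1. On the longest coding transcript ACD lay above TINF2, at 10.1 and 9.19 in untreated cells. In SP2509 cells they were at 11.1 and 10.8 and overlapped.

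**Figure D4:**
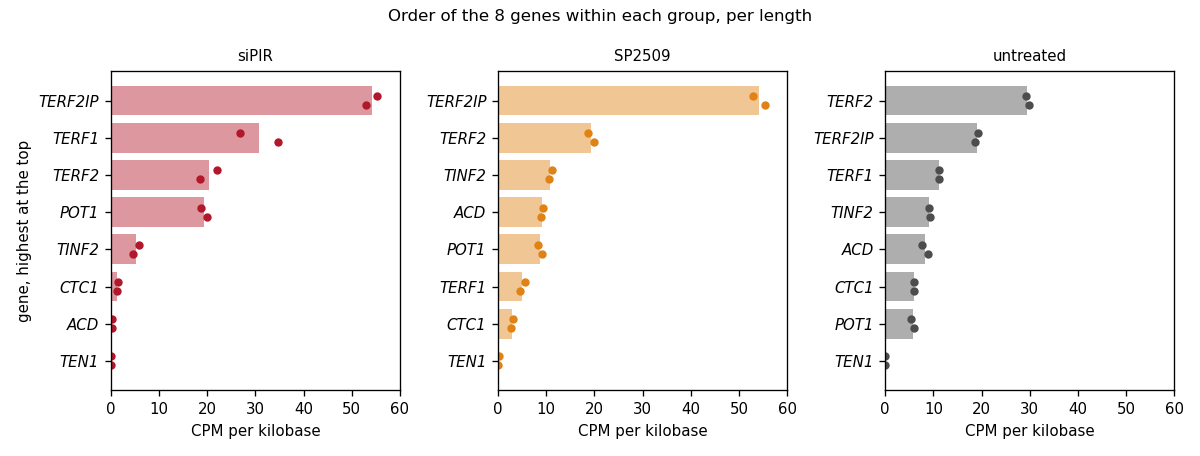
Level of the 8 genes in CPM per kilobase of the longest transcript, ordered within each group; bars are means of 2 libraries and points are the libraries. TERF2IP leads in siPIR and SP2509 cells at 54.2 and 54.1, and TERF2 leads in untreated cells at 29.5.

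Genes with the most similar pattern over the 6 libraries were found for each of the 7 by the root mean square difference of centred log2 CPM, a description that reads the same libraries. For TERF1 they were CHURC1 (0.042) and PTER (0.088), and for POT1 C11orf54 (0.03) and ZNF761 (0.032). For TERF2 they were ACACA (0.054) and PLEKHH1 (0.054), and for TERF2IP ZRANB1 (0.049) and RIOK1 (0.052). The nearest to TINF2 were SUMF2 (0.046) and LINC00839 (0.062), to ACD EPN1 (0.06) and RBM10 (0.092), and to CTC1 TNS3 (0.057) and ACTR1A (0.058). These patterns carry the GC shift of the siPIR libraries as measured. With the offset, in siPIR against untreated cells, some lay apart and others did not. ZRANB1 was at 0.03 and RIOK1 at 0.97, beside TERF2IP at 2.09. EPN1 was at -3.6 and RBM10 at -1.54, beside ACD at -1.24. TNS3 was at -0.37 and ACTR1A at -0.89, beside CTC1 at -0.89.

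Other telomere genes were followed in 5 lists with 45 entries, all of them in the table. The polymerase alpha-primase subunits that work with CST, together with STN1, were all lower in SP2509 cells. There 5 of 5 fell, where 35.1% of all genes fell, with a median log2 change of -0.74 against -0.04 for all genes. All 5 fell under each scaling tried and with the offset. The catalytic subunit POLA1 fell most, to 14.6 ± 0.976 CPM in SP2509 cells, against 46.1 ± 1.94 CPM in untreated cells (log2 change -1.66, SE 0.124, edgeR adjusted p = 1.66e-07). POLA2, its accessory subunit, was at -1.25 (edgeR adjusted p = 6.44e-06), the primase subunit PRIM1 at -0.74 (edgeR adjusted p = 0.000114) and PRIM2 at -0.48 (edgeR adjusted p = 0.0014). These subunits also start every lagging strand in the genome, so the list is not one of telomere proteins alone. In siPIR against untreated cells 3 fell, 1 rose and 1 did not pass, and with the offset 4 fell and none rose. Of all genes 39.3% rose and 46.9% fell in this comparison, or 32.7% and 32.4% with the offset. POLA2 had the smallest adjusted p there, at -2.07 (edgeR adjusted p = 4.66e-08), and at -0.42 with the offset.

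Of 7 regulators of TRF1 protein, 5 rose and 2 fell in SP2509 cells, in which TERF1 RNA was lower, with a median of 0.38, where 33.5% of all genes rose and 35.1% fell. Under upper-quartile or total-count scaling 2 rose and 2 fell, and without untreated replicate 1, 3 rose and none fell. None fell with DESeq2 or without either SP2509 library, and 1 fell without untreated replicate 2. TNKS, tankyrase, which modifies TRF1 and releases it from telomeres, averaged 196 ± 8.68 CPM in SP2509 cells, against 80.6 ± 4.21 CPM in untreated cells (log2 change 1.28, SE 0.1, edgeR adjusted p = 2.54e-07). Its relative TNKS2, named after its value was seen, was at 1.08 (edgeR adjusted p = 3.77e-06). Of the same 7 in siPIR against untreated cells, 4 rose and 2 fell, also with the offset. Of all genes 39.3% rose and 46.9% fell in this comparison, or 32.7% and 32.4% with the offset. RLIM, a ubiquitin ligase known to target TRF1, led there at 2.44 (edgeR adjusted p = 1.05e-10) and was at 0.75 with the offset. It also led in siPIR against SP2509 cells, at 2.05, and at 0.41 with the offset.

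Among 18 nucleases, helicases and DNA damage kinases that act at telomeres, 5 rose and 10 fell in SP2509 cells, with a median of -0.36, where 33.5% of all genes rose and 35.1% fell. The number that fell was 6 with DESeq2, 4 without untreated replicate 1, 6 without SP2509 replicate 1 and 5 without SP2509 replicate 2, and the number that rose was 2 with total counts alone. PARP1, a sensor of strand breaks, was at 157 ± 1.93 CPM in SP2509 cells, against 323 ± 10.8 CPM in untreated cells (log2 change -1.04, SE 0.0931, edgeR adjusted p = 7.67e-07). By contrast RAD50, of the MRE11 complex, was at 0.89 (edgeR adjusted p = 3.25e-05) and ERCC1, of the ERCC1-XPF nuclease, at 0.74 (edgeR adjusted p = 0.00012), RAD50 having been named after its value was seen. Of the 18 in siPIR against untreated cells, 12 rose and 6 fell, and with the offset 6 rose and 8 fell. Of all genes 39.3% rose and 46.9% fell in this comparison, or 32.7% and 32.4% with the offset. WRN, the helicase lost in Werner syndrome, led that comparison at 1.95 (edgeR adjusted p = 7.3e-10), and was at 0.33 with the offset. ERCC1 led the comparison of siPIR with SP2509 cells at -3.55, and was at -1.6 with the offset.

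Of 7 other telomere binding proteins, 4 rose and none fell in SP2509 cells, with a median of 0.44, where 33.5% of all genes rose and 35.1% fell. With total counts alone 1 rose and 1 fell, and 1 fell under upper-quartile scaling, with either offset, with a filter of 1 CPM in 2 samples and without 1 or both siPIR libraries. ZBTB10 averaged 117 ± 2.69 CPM in SP2509 cells, against 42.5 ± 3.93 CPM in untreated cells (log2 change 1.46, SE 0.108, edgeR adjusted p = 1.62e-07). It was also higher in siPIR against untreated cells, at 2.88 and at 1.32 with the offset. Of its list 6 rose and 1 fell there, or 5 rose and none fell with the offset. Of all genes 39.3% rose and 46.9% fell in this comparison, or 32.7% and 32.4% with the offset. NR2C1 led in siPIR against SP2509 cells at 1.6, and was at -0.01 with the offset. Of 8 genes of telomere chromatin and recombination, 3 rose and 1 fell in SP2509 cells with a median of 0.14, shares close to or below those of all genes, 33.5% and 35.1%. Under upper-quartile or total-count scaling 1 rose and 3 fell, none fell with DESeq2 or without any 1 of the SP2509 and untreated libraries, and 1 rose without untreated replicate 1 or SP2509 replicate 1. SMC5, of the complex that promotes recombination at telomeres, led with 117 ± 14.8 CPM in SP2509 cells, against 54.5 ± 2.49 CPM in untreated cells (log2 change 1.10, SE 0.128, edgeR adjusted p = 7.42e-06). It was at 2.63 in siPIR against untreated cells, and at 0.67 with the offset. Of its list 4 rose and 3 fell there, or 2 rose and 5 fell with the offset, beside the same shares of all genes, 39.3% and 46.9%, or 32.7% and 32.4%. DAXX, the partner of ATRX, led in siPIR against SP2509 cells at -2.35, and was at -0.75 with the offset.

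**Figure D5:**
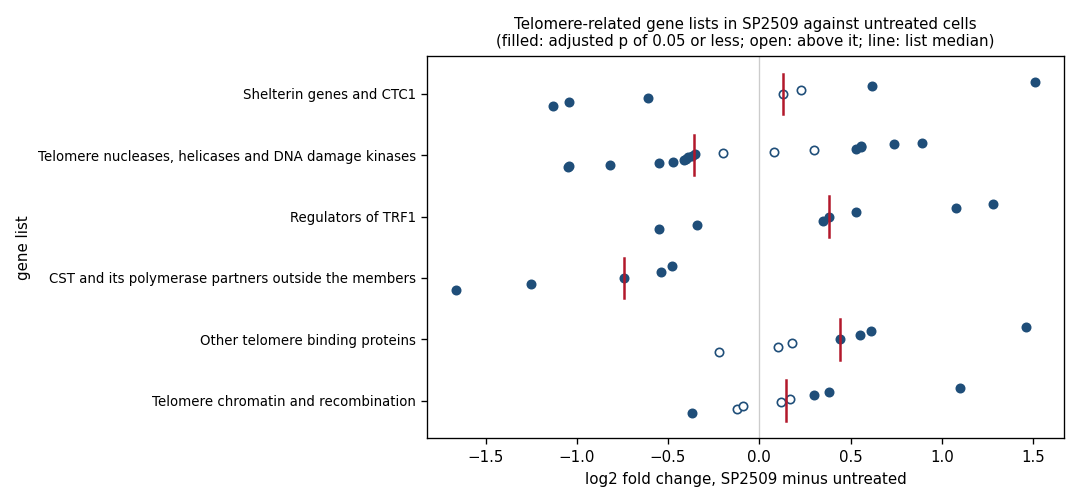
Log2 fold change in SP2509 minus untreated for the shelterin genes with CTC1 and for 5 related lists; each point is a gene, filled where its adjusted p is at or under 0.05, and the vertical line is the median of the list. All 5 polymerase partners with STN1 lie between -1.66 and -0.48, and the shelterin genes with CTC1 spread from -1.13 to 1.51.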

How the data were processed

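RNA was measured in 6 libraries of HCT116, grouped by sample title into siPIR, SP2509 and untreated. What the authors deposited is a table of estimated counts, 60675 genes by library, in which 11% of values are fractional. Per the submitters' processing notes, reads were handled with edgeR 3.26.4, Subread 1.6.2 with featureCounts, HISAT2, Trimmomatic 0.32 and FastQC 0.11.8 on GRCh38. Per the labels' protocols, a directional kit was used on total RNA. Not given in the sources used here are the gene annotation used, how strand was set and why counts are fractional. Reads that near-identical or overlapping genes share may have been split or lost, and such values are uncertain.

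Estimated counts were rounded, filtered with filterByExpr (16503 genes kept), scaled by TMM and fitted as 3 groups with the robust quasi-likelihood test of edgeR 4.0.16 (R 4.3.3). This left 3 residual degrees of freedom. P-values were adjusted over those genes (Benjamini-Hochberg, threshold 0.05). The procedure was tested on simulated data with few changed genes and no GC trend between libraries. That test cannot show how the procedure behaves under the GC shift of the siPIR libraries or with most genes changed. SEs were obtained from the log2 change and its F statistic. GC content, lengths and coordinates came from GENCODE release 29. The GC-length offset used natural splines of 5 degrees of freedom, and 158 tested genes had no GC value. All 8 genes are named in every comparison, and from each related list the gene with the smallest adjusted p in each comparison. Further genes are overlapping or neighbouring genes, those with the most similar patterns (mean log2 CPM 3 or more), and a few said to be picked with their values in view. The genes, lists and tests were chosen with earlier results of these data known. Alternatives were 3 other scalings, DESeq2 1.42.0, limma-voom (limma 3.58.1), other filters, blocks, the offset and the removal of each library. Floors of 3 counts cover counting error only. Libraries with the same replicate number, or the same unexplained number in the sample descriptions, had only weakly correlated deviations. Neither number was taken to pair libraries, though pairing is not excluded.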

Additional observations from a re-analysis of the deposited data

How the results depend on the processing

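In all, 399 values of the 7 genes were recomputed under the alternatives. Of these, 351 kept their direction and their side of the threshold, and 28 reversed, whether or not their call changed as well. Among values that kept their direction, 16 gained a call and 4 lost it. With total counts alone, 1 of the 7 genes was higher in SP2509 against untreated cells in place of 2, and with the GC-length offset, with or without the replicate block, and the offset on coding transcripts, 4 were. The offset, with or without the block, left 2 genes lower in siPIR against untreated cells in place of 4. Each of the 3 forms of the offset left 4 higher in siPIR against SP2509 cells in place of 2. With the replicate block alone 5 genes were called in SP2509 against untreated, 7 in siPIR against untreated and 5 in siPIR against SP2509 cells, as without it. Correlations of the deviations of libraries with the same number were between -0.038 and 0.081. A second number in the sample descriptions (10, 11 or 12), which the labels do not explain, gave correlations between -0.081 and 0.038 over libraries that share it. The 2 libraries of a group deviate by equal and opposite amounts, so both checks give the same correlations up to sign. Weak correlations of this kind cannot exclude pairing. A block for it left 6 genes called in SP2509 against untreated cells, TINF2 being added.

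These values reversed. In siPIR against untreated cells TERF2 went to 0.19 with the offset, 0.19 with offset and block and 0.08 on coding transcripts, TINF2 to 0.79, 0.79 and 0.68, and on coding transcripts alone TERF1 to -0.28 and POT1 to -0.06. In siPIR against SP2509 cells TINF2 went to 0.43, 0.43 and 0.31, POT1 to -0.61, -0.61 and -0.69, and CTC1 to 0.07 and 0.07 with the offset without and with the block. TERF2 in that comparison was -0.16 with total counts alone, -0.03 with no count filter and between -0.05 and 0.19 with each library left out, and TERF2IP was -0.23, -0.09 and between -0.04 and 0.03. In SP2509 against untreated cells ACD was -0.11 by the upper quartile and -0.26 by total counts, and TINF2 -0.16 with total counts alone. The cause was not tested, except that the offset by construction removes what follows GC content and length.

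Scaling moved the median of all genes in SP2509 against untreated cells to -0.27 (upper-quartile) and -0.43 (total counts alone), with 36.2% and 28.3% of calls higher in place of 48.8%, and in siPIR against untreated cells to -0.45 and -0.89, with 42.5% and 33.9% in place of 45.6%. Leaving out a library ended no call among the 7 genes and turned no called value, and without either siPIR library TINF2 also passed in SP2509 against untreated cells (0.25). TEN1 had at most 4 counts in a library and ACD 14 in each siPIR library, which limits the precision of both.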
